A study of Oryza sativa with 2 samples.

Results

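The 6 rice genes described here encode ethylene receptors (ETR2, ERS1 and ERS2), the signal transducer EIN2 and an adjacent pair of EIN3-like transcription factors that both carry the name EIL1. They were chosen by symbol or synonym in a table of rice genes, out of 17905 genes that had a probe set of their own on the array. The rule uses names alone, though the set was proposed with earlier results of these data known. The table calls LOC4332697 also EIL1B, and LOC107276358 also EIL1A and MHZ6, and the pair is named EIL1B and EIL1A in what follows. RNA came from leaves of rice, cultivar indica 9311. The transgenic group was 9311 seedlings that carried OsEATB, a transcription factor gene of the ERF family, and the nontransgenic group was 9311 seedlings without it. For each group 10 plants with 4 leaves were pooled and hybridised to 1 array, after growth at 28 °C with 14 h of light and 10 h of darkness. The labels state neither the promoter of the transgene nor the number of independent lines. OsEATB could not be matched to a probe set by its name, so the group labels have no check from the transgene.

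Ethylene is perceived in plants by receptors of the endoplasmic reticulum membrane that are active without the hormone and keep the pathway off. When ethylene binds, this block is released, the carboxyl-terminal part of EIN2 signals onward, and EIN3-like factors accumulate and switch on target genes, among them ERF transcription factors. In rice, MHZ6 and MHZ7, the synonyms of EIL1A and EIN2, come from mutants whose seedling roots respond poorly to ethylene.

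With 1 array per group no test between the groups exists, and each value below is a single measurement with no SD or p-value. A signal is a MAS5 probe set brightness on the log2 scale, and a ratio is the transgenic minus the nontransgenic log2 signal. Brightness differs between probe sets for reasons other than transcript number, so ratios were taken within a probe set, and a place or distance between probe sets is one of brightness, not of transcript amount. To pass a filter on dim signals, a probe set had to be at or above the median of 1 or both arrays (5.32 on the transgenic and 5.16 on the nontransgenic array), and all 6 genes passed. A gene was represented by its brightest passing probe set that is annotated to that gene alone. A difference of 2-fold, a log2 ratio of 1, served as a marker of size. Of 15192 passing genes, 10.5% differed by at least 2-fold, with 6.04% higher and 4.43% lower in the transgenic leaves, and the median log2 ratio was -0.01. Of 5 measured leaf genes of the light reactions and carbon fixation, 4 passed, at log2 signals of 15.75 to 16.19 on the transgenic and 15.26 to 15.80 on the nontransgenic array, and a further RBCS gene lay below the filter. Of 5 measured seed genes 4 passed, and the linear signals of the 5 summed to 12634 on the transgenic and 6939 on the nontransgenic array, or 6190 and 6935 without LEA19. The part of these seed signals in the results was not tested.

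EIL1B was the 1 gene of the 6 that differed by 2-fold or more. Centring the arrays on hybridisation controls put the median of all genes at -0.91. ERS1, ERS2 and EIN2 then passed 2-fold as well, 4 of 6 in all. In that setting 200 of the 15192 passing genes were higher and 6138 lower by at least 2-fold. The probe set of EIL1B (Os.8888.1.S1_at) had a log2 signal of 5.91 on the transgenic array and 11.50 on the nontransgenic array. In linear units the signal was 60.1 in transgenic leaves and 2887 in nontransgenic leaves. EIL1B was therefore 48.1-fold lower in the transgenic leaves, a log2 ratio of -5.59. The fold was 31.7 with a pseudocount of 32 and 89.5 with control centring, and the brightest probe set that EIL1B shares with other genes was 1.20-fold higher. Neither signal lay at the background floor, the 40th percentile of the array (4.61 on the transgenic and 4.41 on the nontransgenic array). The ratio was thus not set by that floor. Detection calls are not given, so whether the transgenic signal stood above true background is unknown. The transgenic signal stood at percentile 57.8 of its array and the nontransgenic signal at percentile 93.1 of its own. In leaf RNA, a lower signal from fewer cells of a type and one from less RNA per cell cannot be told apart.

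EIL1A, the other EIN3-like factor, was read by a probe set near the top of the brightness range of both arrays and differed by less than 2-fold. Its representative probe set (Os.12691.2.S1_a_at) read 15.02 in transgenic and 14.78 in nontransgenic leaves, linear signals of 33176 and 28192. The log2 ratio was 0.23, or 1.18-fold. Of 184 genes of like brightness 0 differed by 2-fold, so a small ratio was usual at this signal. The signal stood at percentile 99.68 of each array. A second probe set annotated to EIL1A alone (Os.12691.4.S1_at) was far dimmer, at 7.32 in transgenic and 6.52 in nontransgenic leaves, with a log2 ratio of 0.80. Both probe sets of EIL1A were thus brighter on the transgenic array, by 1.18-fold and 1.74-fold in that order, and neither reached 2-fold. The sign of the EIL1A ratio turned when the arrays were centred on hybridisation controls. Quantile normalization gave a log2 ratio of 0.001 and lowess centring 0.04, so little of the difference remained.

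**Figure D1:**
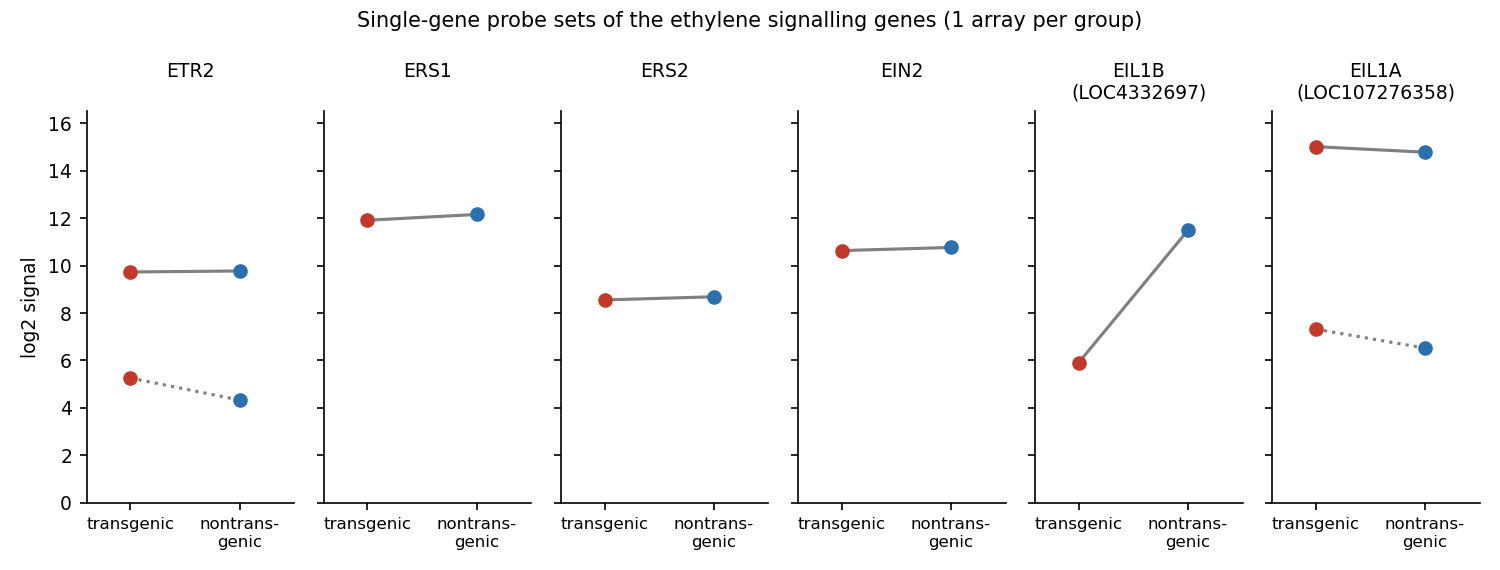
Log2 signal (vertical axis) of every probe set annotated to 1 of the 6 genes alone, with the transgenic array (red) left of the nontransgenic array (blue), 1 array each. Solid lines join the values of the probe set that represents the gene and dotted lines those of a further probe set. EIL1B shows the steep line, with 5.91 on the transgenic and 11.50 on the nontransgenic array, while the other solid lines are nearly flat.

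The log2 ratio of EIL1B minus that of EIL1A was -5.82, a contrast of 56.6-fold between genes that stand next to each other, or 37.3-fold with the pseudocount. The table of rice genes lists 0 genes between them on their chromosome. Among 7629 pairs of adjacent genes that both passed the filter, the median difference between the log2 ratios was 0.41, and 11 pairs, the EIL1 pair included, differed by at least as much as EIL1B and EIL1A. Of the 5 nearest measured genes on each side of the pair, 9 of 10 passed the filter, and 0 of them differed by 2-fold, against 10.5% of all passing genes, a share at which few or none of 9 would. Their log2 ratios ran from -0.26 to 0.68 with a median of 0.13. The gene before EIL1B, LOC4332695, read 8.87 in transgenic and 8.20 in nontransgenic leaves, the upper end of that range. LOC4332694, one gene further, read 10.58 and 10.84 in the same order of groups, its lower end.

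The low reading of EIL1B came from 1 probe set. A further 3 probe sets are annotated to EIL1B together with EIL1A and LOC4347171, a gene on another chromosome for which the table gives no descriptive name, and none of these 3 followed it. The brightest of them (Os.12691.1.A1_a_at) read 15.19 in transgenic and 14.92 in nontransgenic leaves, a log2 ratio of 0.27. Another (Os.12691.3.S1_x_at) read 10.67 in transgenic and 11.03 in nontransgenic leaves, a log2 ratio of -0.36. The dimmest (Os.12691.1.A1_x_at) read 7.67 in transgenic and 7.81 in nontransgenic leaves, a log2 ratio of -0.14. Within these readings the transcripts of the 3 genes cannot be told apart. LOC4347171 had a probe set of its own at 9.34 in transgenic and 9.42 in nontransgenic leaves, a log2 ratio of -0.08. This gene is given because it shares probe sets with the pair, and it was chosen after its values were seen.

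**Figure D2:**
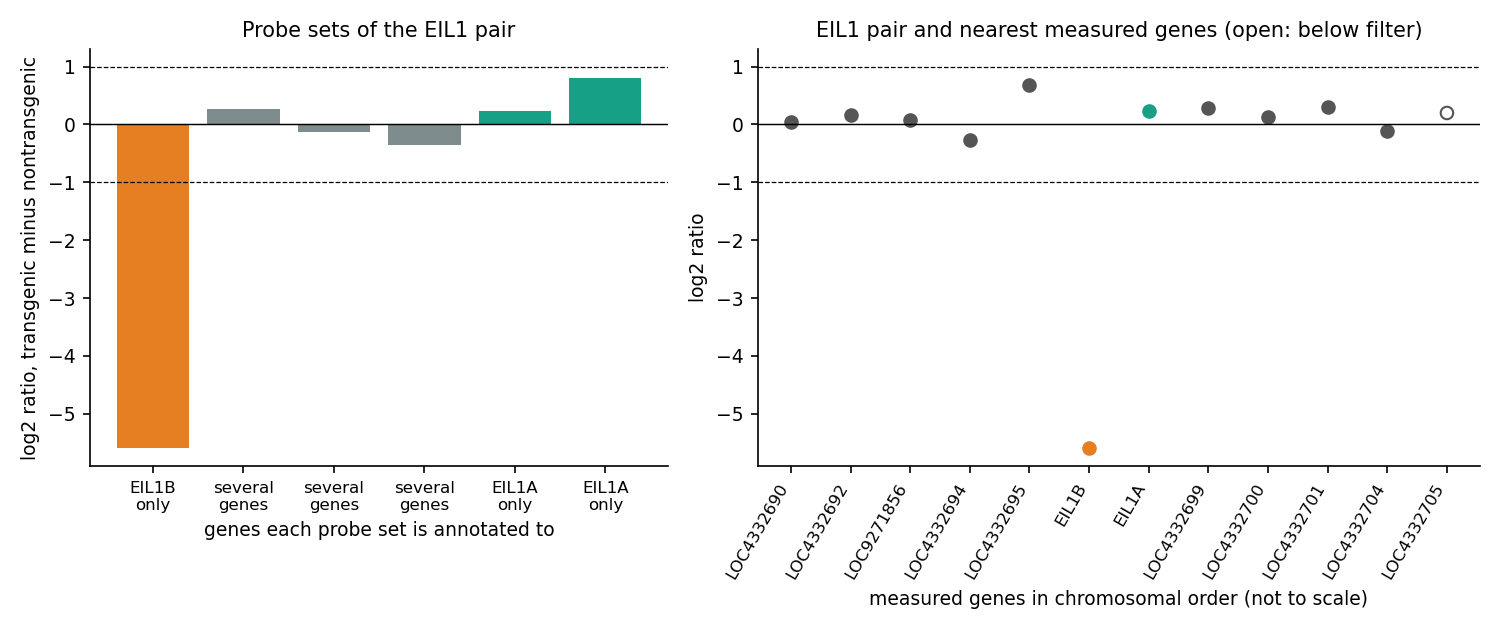
Left, log2 ratio (transgenic minus nontransgenic) of the 6 probe sets of the EIL1 pair, each bar 1 probe set, grouped by the genes it is annotated to. Right, log2 ratio of the pair and of the 5 nearest measured genes on each side in chromosomal order, with dashed lines at 2-fold. The probe set of EIL1B alone stands at -5.59, while the other probe sets lie between -0.36 and 0.80 and the passing neighbours between -0.26 and 0.68.

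The other genes on the arrays with shared probe sets had smaller ratios on a probe set of their own, but disagreement with shared probe sets was not particular to EIL1B. Genes with a passing probe set of their own and a passing one shared with other genes numbered 68, EIL1B among them. Besides EIL1B, 4 of these differed by 2-fold on the probe set of their own, with log2 ratios of -1.44 to 1.20. Of these 5 genes, 0 differed by 2-fold in the same direction on a shared probe set. LOC4348525, chosen after its values were seen, had a log2 ratio of -0.01 on its own probe set. On shared probe sets it had 3.37 and 5.05. Where several probe sets were annotated to 1 gene alone, large ratios were mostly repeated. Of 2414 such genes, 6 had a ratio of 16-fold or more on the brightest probe set, and in 5 of the 6 the next probe set differed by 2-fold in the same direction. EIL1B has no second probe set of its own, so this comparison was not possible for it.

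Ratios as large as that of EIL1B were rare on these arrays. Counting bounds as they stand, it ranked as the number 10 fall of 15192 genes, and as number 4 among the 14425 genes above the floor on both arrays. Of 2155 genes whose nontransgenic log2 signal lay within 0.5 of that of EIL1B, only EIL1B itself was as dim on the transgenic array. Their median transgenic log2 signal was 11.44, and 95% of them exceeded 10.73. The 3 genes nearest to EIL1B in the plane of both log2 signals were LOC4325244, LOC4348459 and LOC4338062, by Euclidean distance over 2 arrays. LOC4325244, at a distance of 1.16, read 6.04 in transgenic and 12.64 in nontransgenic leaves. LOC4348459, at 1.47, read 4.97 in transgenic and 10.36 in nontransgenic leaves, and LOC4338062, at 1.48, read 4.77 and 10.56 in the same order. These genes lie on chromosomes other than that of EIL1B and have no descriptive name in the table.

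**Figure D3:**
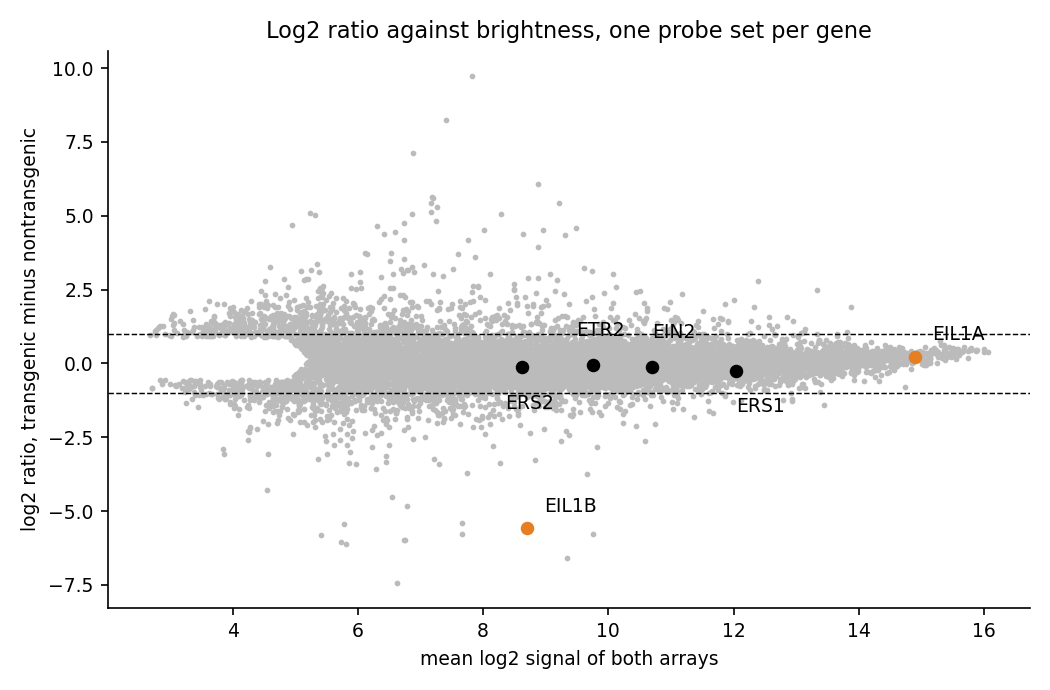
Log2 ratio (transgenic minus nontransgenic) against the mean log2 signal of both arrays for the 15192 passing genes (grey), each by its representative probe set, with dashed lines at 2-fold. EIL1B and EIL1A are orange and the receptors and EIN2 black. EIL1B lies far below the cloud at -5.59, and the remaining 5 lie inside the 2-fold lines.

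The 3 receptor genes ERS1, ERS2 and ETR2 differed by 1.18-fold or less. Control centring, which shifts all genes, gave 2.20-fold for ERS1, 2.04-fold for ERS2 and 1.92-fold for ETR2, all lower in transgenic leaves. ERS1, a receptor of subfamily I that lacks the receiver domain, read 11.92 in transgenic and 12.16 in nontransgenic leaves, a log2 ratio of -0.24. ERS2, the other rice receptor of that subfamily, read 8.55 in transgenic and 8.69 in nontransgenic leaves, a log2 ratio of -0.13. ETR2, a receptor of subfamily II, read 9.73 in transgenic and 9.77 in nontransgenic leaves, a log2 ratio of -0.04. All 3 were slightly dimmer on the transgenic array. For ETR2 this order did not hold after lowess centring, which gave a log2 ratio of 0.02, or after quantile normalization, which gave 0.00042. A second probe set of ETR2 (Os.14934.2.S1_at) was dim and did not pass the filter, at 5.26 in transgenic and 4.33 in nontransgenic leaves. Its nontransgenic signal lay below the floor.

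Differences of this size were common among genes of like brightness. Of the 1672 genes with a mean log2 signal within 0.5 of that of ERS1, 35.7% had a ratio at least as large in either direction. For ERS2 this held for 1316 of 1755 such genes, and for ETR2 for 2124 of 2376. The remaining receptors of the table, ETR3 and ETR4, belong to subfamily II as well. ETR3 read 10.47 in transgenic and 10.20 in nontransgenic leaves, a log2 ratio of 0.28. ETR4 was listed at 1.40 in transgenic and 1.42 in nontransgenic leaves, below the floor of both arrays, and has no ratio.

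EIN2, the membrane protein between the receptors and the EIN3-like factors, read 10.63 in transgenic and 10.77 in nontransgenic leaves, linear signals of 1590 and 1742. Its log2 ratio was -0.13, or 1.10-fold lower (2.04-fold with control centring), and 63.9% of 2609 genes of like brightness had a ratio at least as large. EIN2 and the receptors are each known here from a single passing probe set. Among the 6 genes the median log2 ratio was -0.13, against -0.01 over all passing genes. With 1 of 6 genes at 2-fold, against 10.5% of all passing genes, the count itself does not set the group apart.

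Genes around this core were taken from lists of the ethylene pathway, matched by symbol. In all, 23 genes of the lists passed the filter, the 6 genes included. With signals below the floor raised to it, EIL1B was the 1 at 2-fold, against 10.5% of all passing genes taken alike. A further 20 were under 2-fold with both arrays above the floor. ACO1 and ERF31 had 1 array below the floor, so their ratios are bounds. With the deposited signals, 3 of the 23 differed by 2-fold. Over all 15192 passing genes, the deposited signals put 978 higher and 824 lower by at least 2-fold. The median log2 ratio of the 17 others was -0.01, the same to 2 decimals as over all genes, with 8 above 0 and 9 below. For EIN3-like factors the list matched no gene beyond the EIL1 pair. The list of receptors and partners matched 7 genes, of which 6 had a probe set of their own and 5 passed. Its 1 gene without such a probe set was MHZ1, a histidine kinase gene.

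Ethylene synthesis and methionine recycling contributed 9 passing genes of 11 matched, with a median log2 ratio of -0.01. Of these 8 were under 2-fold and ACO1 had only a bound. With signals below the floor raised to it, 0 of the 9 reached 2-fold, against 10.5% of all passing genes taken alike. At that share few or none of 9 would. SAM1 and SAM2 encode S-adenosylmethionine synthetases, which make the precursor of ethylene. SAM1 read 14.23 in transgenic and 14.32 in nontransgenic leaves, and SAM2 read 13.36 on both arrays. ARD2 and ARD4 encode acireductone dioxygenases, which act in the recycling of methionine. ARD4 read 14.12 in transgenic and 13.19 in nontransgenic leaves, a log2 ratio of 0.93, or 1.91-fold, just under the 2-fold mark. ARD2 read 12.94 in transgenic and 12.80 in nontransgenic leaves, though the table lists it together with symbols of a heat stress factor, so its identity is uncertain. ACO1, an ACC oxidase of the last step of synthesis, was dim, at 5.40 in transgenic and 2.37 in nontransgenic leaves, chosen after its values were seen. Counted from the floor it was at least 1.98-fold higher, while the deposited signals differed by 3.03 on the log2 scale.

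Of the ethylene response factor list 16 genes matched, 10 had a probe set of their own and 7 passed, with a median log2 ratio of 0.04. Of these 6 were under 2-fold and ERF31 had only a bound. With signals below the floor raised to it, 0 of the 7 reached 2-fold, against 10.5% of all passing genes taken alike. At that share few or none of these 7 would. Most of them carry an ERF number as a synonym of a DREB gene of the same AP2/ERF superfamily. The brightest was EREBP1, at 12.79 in transgenic and 12.75 in nontransgenic leaves. ERF42, also DREB2B, read 9.95 in transgenic and 9.40 in nontransgenic leaves, a log2 ratio of 0.56. ERF40, also DREB2A, read 6.92 in transgenic and 5.98 in nontransgenic leaves, a log2 ratio of 0.93. ERF24, also DREB1A, read 6.05 in transgenic and 6.48 in nontransgenic leaves, a log2 ratio of -0.43. These 4 thus lay on both sides of 0 and inside the 2-fold marks. ERF31, also DREB1B and chosen after its values were seen, was dim, at 3.84 in transgenic and 5.27 in nontransgenic leaves. Counted from the floor it was at least 1.58-fold lower, while the deposited signals differed by -1.43 on the log2 scale.

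**Figure D4:**
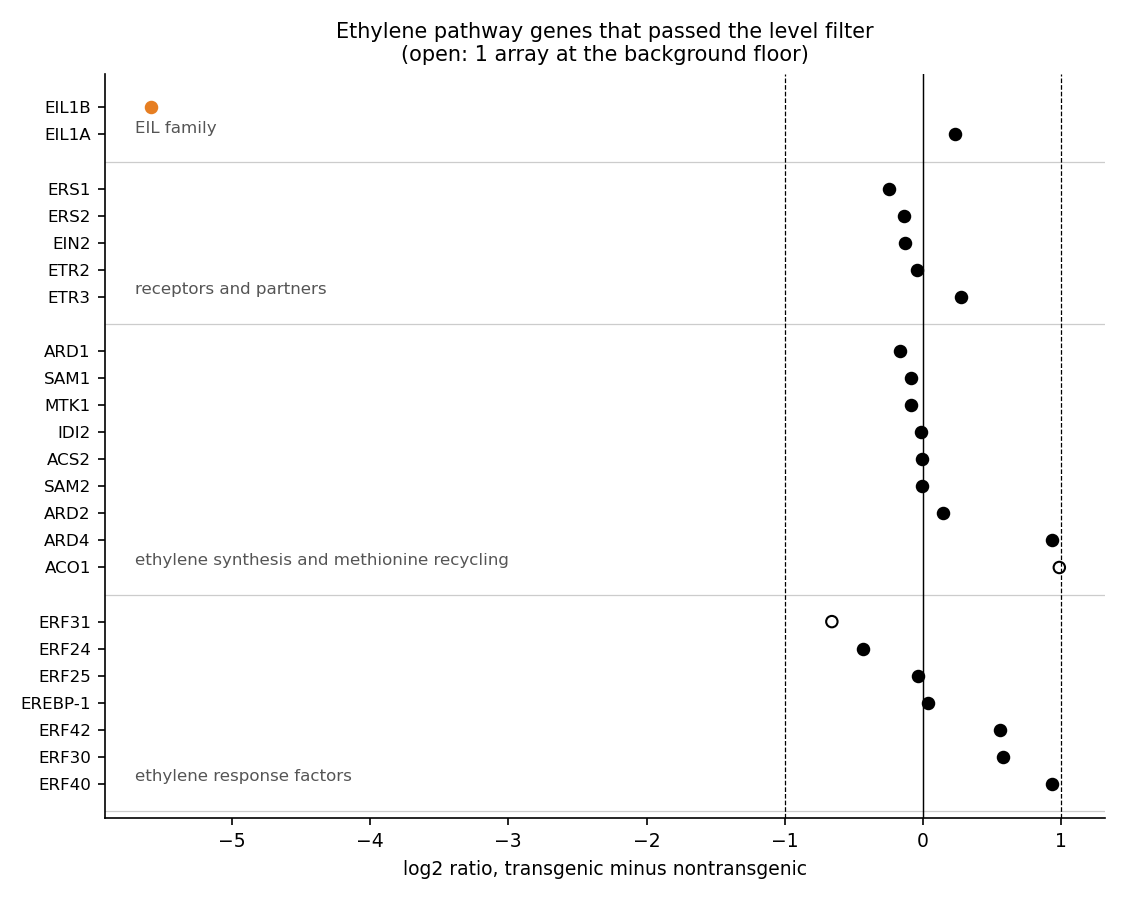
Log2 ratio (transgenic minus nontransgenic, horizontal axis) of the 23 ethylene pathway genes that passed the level filter, by list. Open points (ACO1 and ERF31) have 1 array at the background floor and are bounds, and dashed lines mark 2-fold. EIL1B stands at -5.59, and 20 genes measured above the floor on both arrays lie between the dashed lines.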

How the data were processed

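The deposited values are MAS5 signals on a log2 scale, per the submitters' processing notes and the range of the values. Not given in the sources used here are the version of MAS5, its scaling target and its detection calls. Unlogged, both arrays had a trimmed mean of about 500.1, so the authors' scaling removes any overall difference in brightness. Here, 187 control probe sets were set apart, signals below the 40th percentile of an array were raised to it, and log2 ratios were taken. Gene names came from the annotation table of the platform and a reference of rice genes (assembly ASM3414082v1), used for names and gene order only. The 95 probe sets with several genes represented none. Per-sample columns without a group numbered 0. Python 3.11.15 and pandas 2.3.3 were used, with statsmodels 0.14.6 for lowess. The counting was run on simulated data with differences planted in bright probe sets only. That run bears on the arithmetic, not on the noise of these arrays or on the EIL1B reading. The precision is limited by the number of arrays.

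The members, lists and alternatives were chosen with earlier results of these data known. Named were the 6 genes, all measured EIN3-like, receptor and partner genes, from the other lists any gene at 2-fold and the 4 brightest, the 3 genes nearest to EIL1B in signal, and chromosome neighbours at 2-fold. Other neighbours are named as the ends of a range. The symbols SK1 and SK2 were left out of the ethylene response factor list, since genes of other families carry them. Of the 2 root genes matched as markers, 1 had a probe set of its own, with a log2 ratio of 0.19.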

Additional observations from a re-analysis of the deposited data

How the results depend on the processing

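In all 11 alternatives EIL1B (LOC4332697) was lower by more than 2-fold, with log2 ratios of -6.48 to -4.99, and its difference from EIL1A ran from -6.10 to -5.22. Several of these could not change the EIL1B ratio. The alternatives of floor, filter and probe set choice left it at -5.59. Its signals lie above those floors and filters, and it has 1 probe set of its own. Median and control centring shift all genes alike. Centring on hybridisation controls put the median of all genes at -0.91. It gave -6.48 for EIL1B, -0.66 for EIL1A, -0.94 for ETR2, -1.14 for ERS1, -1.03 for ERS2 and -1.03 for EIN2, past 2-fold for the last 3 and not for EIL1A and ETR2, with 200 genes higher and 6138 lower in place of 918 and 673, so that higher genes were 3.16% of those at 2-fold in place of 57.7%. Relative to that median the 6 values were as before. With the 75th-percentile filter, which leaves fewer genes, 297 were higher and 218 lower. A pair of readings was added after seeing the data. The brightest probe set annotated to EIL1B, shared with other genes, gave 0.27 and a difference of 0 from EIL1A, which the same probe set then represents. The mean over all its annotated probe sets gave -1.45, and -1.61 for the difference. No paired analysis was possible because each group has 1 array. Scatter between arrays of 1 group is unknown.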
